A study of Homo sapiens with 12 samples.

Results

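The genes described here were 8 genes of the HOXA cluster (HOXA3, HOXA4, HOXA5, HOXA6, HOXA7, HOXA9, HOXA10 and HOXA11) and their cofactor genes MEIS1 and PBX3. They were the 10 rows with these symbols among the 20030 rows of the FPKM table of an mRNA-seq study of 2 leukemia lines, MOLM-13 and THP-1. The study asked how JOA, Jiyuan oridonin A, a diterpenoid made from a plant of the genus Isodon, acts on acute myeloid leukemia cells with a rearranged MLL gene. MOLM-13 and THP-1 are established human leukemia cell lines of the monocytic lineage, and both carry an MLL rearrangement. MOLM-13 cells carry an internal tandem duplication of FLT3, while THP-1 cells have wild-type FLT3. Control cells of each line were kept with the solvent DMSO for 48 h. Treated MOLM-13 cells received 0.5 μM JOA and treated THP-1 cells received 2 μM JOA, both for 48 h, with 3 libraries in each of the 4 groups. The time is that of the sample labels and the methods, while a figure legend of the study gives a longer time. Cell line and dose therefore cannot be told apart in any comparison of the JOA response between the lines, and each line stands for a single established culture.

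HOX genes encode homeodomain transcription factors that set positional identity in the embryo, and the genes of the HOXA cluster are also expressed in blood stem and progenitor cells and are turned down as these cells mature. MLL, a histone methyltransferase now named KMT2A, keeps HOX genes active, and its fusion proteins in leukemia hold HOXA9 and its cofactor gene MEIS1 at a high level. MEIS1 and PBX3 belong to the TALE class of homeodomain proteins, which bind DNA together with HOX proteins.

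In the human genome build GRCh38 with the GENCODE 29 annotation, the 8 HOXA genes lie side by side on the minus strand of chromosome 7, from HOXA3 (chr7:27106184-27152581) to HOXA11 (chr7:27181510-27185223). HOXA9 spans chr7:27162435-27175180 and HOXA10 spans chr7:27170591-27180261. MEIS1 lies on the plus strand of chromosome 2 (chr2:66433452-66573869) and PBX3 on the plus strand of chromosome 9 (chr9:125747345-125967377). RefSeq promoter sequences on GRCh38.p14 matched 9 of the 10 genes with 16 start sites, 7 of them of HOXA3 and 2 of HOXA10. The 250 bases before the start site are shown for 4 genes that carry the contrasts below: HOXA7, HOXA9 and MEIS1, whose level differed between the lines, and HOXA10, whose level was close in both. Capitals mark CCAAT or its reverse complement ATTGG, the letters of the CCAAT box. The windows are chr7:27156676-27156925 for HOXA7, chr7:27165538-27165787 for HOXA9 and chr7:27179862-27180111 for HOXA10, all read from the minus strand, and chr2:66434875-66435124 for MEIS1, read from the plus strand.
HOXA7: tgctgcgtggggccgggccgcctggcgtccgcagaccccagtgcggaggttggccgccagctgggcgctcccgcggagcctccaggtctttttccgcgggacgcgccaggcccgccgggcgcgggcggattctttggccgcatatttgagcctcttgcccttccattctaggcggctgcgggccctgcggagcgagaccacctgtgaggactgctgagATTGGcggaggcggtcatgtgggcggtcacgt
HOXA9: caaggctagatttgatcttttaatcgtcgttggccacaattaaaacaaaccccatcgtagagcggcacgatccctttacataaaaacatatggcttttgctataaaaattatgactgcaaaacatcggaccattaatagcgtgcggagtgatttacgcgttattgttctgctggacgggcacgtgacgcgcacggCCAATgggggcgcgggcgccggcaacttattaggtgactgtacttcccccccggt
HOXA10: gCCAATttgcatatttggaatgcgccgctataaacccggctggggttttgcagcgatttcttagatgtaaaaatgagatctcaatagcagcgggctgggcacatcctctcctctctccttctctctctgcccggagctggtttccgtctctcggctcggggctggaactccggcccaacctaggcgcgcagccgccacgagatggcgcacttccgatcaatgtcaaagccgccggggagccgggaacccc
MEIS1: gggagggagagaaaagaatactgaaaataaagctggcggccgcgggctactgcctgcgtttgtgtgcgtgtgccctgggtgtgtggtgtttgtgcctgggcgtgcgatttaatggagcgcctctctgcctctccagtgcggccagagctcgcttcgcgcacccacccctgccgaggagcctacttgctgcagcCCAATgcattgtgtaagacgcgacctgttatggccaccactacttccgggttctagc
CCAAT, searched on both strands, was present in 8 of the 16 windows, from 7 genes, against 32.0% of the 35116 RefSeq windows of the same length. In these sequences it began 55 bases before the start of HOXA9, 57 before that of MEIS1, 32 before that of HOXA7 (on the opposite strand) and 249 before that of HOXA10. The other start site of HOXA10, not shown, had it 54 bases before the start on the opposite strand, so its distance does not set HOXA10 apart. TGATTNAT, letters bound by HOX and PBX proteins together, was found in 0 of the 16 windows and in 2.48% of all windows. TGACAG, letters bound by MEIS proteins, was found in 2 windows, those of HOXA4 and PBX3, and in 13.0% of all windows. The 16 windows held between 0 and 36 CG pairs, against a median of 11 over all windows. HOXA7 had 28, HOXA9 20, HOXA10 19 and MEIS1 16.

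The table holds FPKM, a level in which the fragments of a gene are divided by its exon length and by the mapped fragments of the library, so levels and can be set side by side between genes. Read totals are unknown. Steps between low values placed the depth of the MOLM-13 libraries at 0.867 to 1.00 of that of control library 1, and that of the THP-1 libraries at 0.923 to 1.10 of their own control library 1. Correlations of log2 FPKM were 0.991 to 0.996 between libraries of the same group and 0.804 to 0.821 between the lines. All 8 myeloid and monocytic markers were above 0 in each group, led by LYZ (lysozyme) at 2473 ± 617 FPKM in MOLM-13 control cells and 1032 ± 302 in THP-1 control cells (mean ± SD, n = 3). CD14, a receptor of mature monocytes, was low, at 0.144 ± 0.106 and 0.548 ± 0.322 FPKM. Of 9 markers of other cell types, 6 were listed at 0 in all MOLM-13 control libraries and 5 in all THP-1 control libraries, and their sum never exceeded 1.25 FPKM. In bulk RNA, fewer cells with a transcript and less of it per cell cannot be told apart.

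The lines were set side by side in control cells first. A gene was called where limma gave a Benjamini-Hochberg adjusted p under 0.05 over all genes tested and a log2 fold change of at least 0.58 in size on the log2(FPKM + 0.1) scale. HOXA3, HOXA4, HOXA5, HOXA6, HOXA7, HOXA9 and MEIS1 were lower in THP-1 than in MOLM-13 control cells, 7 of the 10 genes, while none was called higher. HOXA10, HOXA11 and PBX3 were not called. Among all 12635 genes tested, 44% were called, 19% lower and 25% higher in THP-1, and the 7 of 10 called lower are to be read beside that 19%. The same 7 genes had THP-1 values that did not overlap with those of MOLM-13, against 74.8% of all genes tested. The median log2 fold change over the 10 genes was -1.71, and over all genes it was 0.06. HOXA3 was under 0.1 FPKM in THP-1 and passed the filter on low values through its MOLM-13 level alone, so it had to differ. Of the 8 myeloid and monocytic markers, 3 were called higher in THP-1, among them CSF1R, the receptor of a macrophage growth factor (log2 fold change 1.91), and CD14 (1.34). The control groups of CD14 overlapped at low values, 0.0743 to 0.265 FPKM in MOLM-13 and 0.202 to 0.840 in THP-1. The 2 markers called lower were CD33 (-1.87) and LYZ (-1.27). Of the markers of other cell types, COL1A1, a collagen gene, was called higher in THP-1 at 0.476 ± 0.452 FPKM against 0.0923 ± 0.0368 in MOLM-13, which is under the filter, so its direction too was fixed. The part of these markers in the differences of the 10 genes was not tested.

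**Figure D1:**
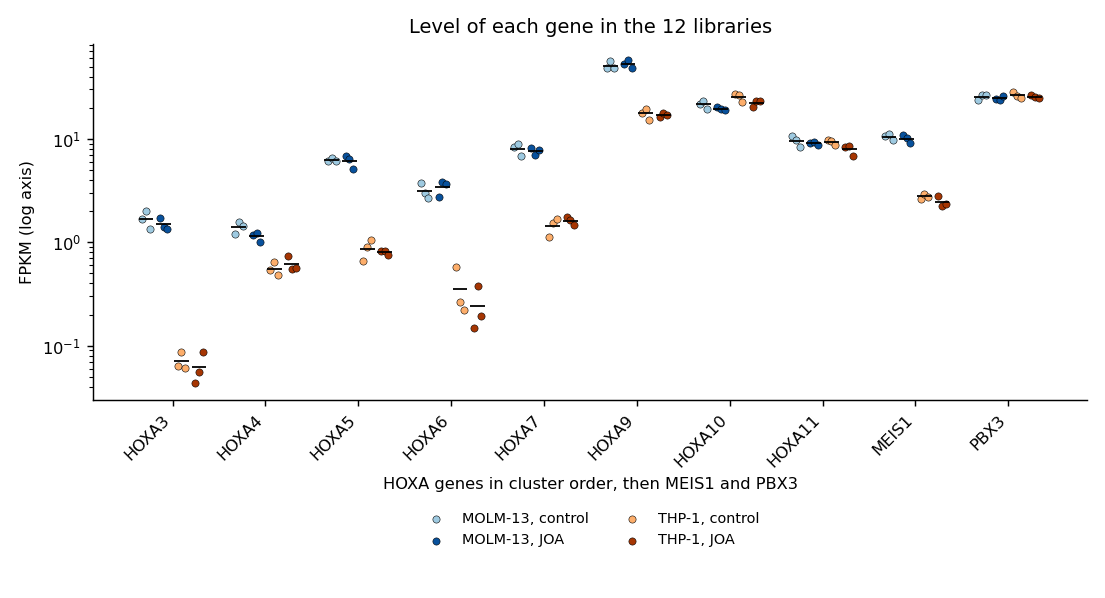
FPKM of the 10 genes in the 12 libraries on a log axis, with a point for each library and a bar for the mean of each group of 3. The points of HOXA3 to HOXA7, HOXA9 and MEIS1 lie lower in THP-1 (orange and brown) than in MOLM-13 (blue), those of HOXA10, HOXA11 and PBX3 lie at nearly the same height in both lines, and control and JOA points of a line lie close together for each gene.

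HOXA9, the HOX gene most closely tied to MLL-rearranged leukemia, was the highest of the 10 genes in MOLM-13 cells. Its values in control libraries 1 to 3 were 48.0, 56.9 and 48.2 FPKM in MOLM-13 and 17.9, 19.5 and 15.3 FPKM in THP-1. All 3 THP-1 libraries were far below the lowest MOLM-13 library. The mean was 2.90-fold higher in MOLM-13, with a log2 fold change of -1.53 (SE 0.10, adjusted p = 4.07e-06 by limma) for THP-1 against MOLM-13.

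HOXA10, a paralog expressed in early myeloid cells, did not share this difference. Control libraries 1 to 3 had 22.0, 23.2 and 19.3 FPKM in MOLM-13 and 27.0, 26.8 and 22.7 FPKM in THP-1, and the groups overlapped. The log2 fold change was 0.25 (95% interval 0.03 to 0.47, limma adjusted p = 0.0456), under the fold needed for a call. HOXA11, which patterns the limb and kidney in the embryo, stood at 10.6, 9.71 and 8.28 FPKM in MOLM-13 and at 9.69, 9.43 and 8.70 FPKM in THP-1. Its THP-1 values lay inside the MOLM-13 range, and the log2 fold change was -0.04, with an interval from -0.26 to 0.19 and an adjusted p of 0.765 by limma.

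The genes on the other side of HOXA9 were low in THP-1. HOXA7 had 8.33, 8.92 and 6.88 FPKM in the MOLM-13 control libraries and 1.12, 1.55 and 1.68 FPKM in the THP-1 control libraries. The groups lay well apart, with a mean 5.55-fold higher in MOLM-13 and a log2 fold change of -2.40 (SE 0.16, limma adjusted p = 3.63e-06). HOXA6 had 3.76, 3.00 and 2.70 FPKM in MOLM-13, against 0.575, 0.262 and 0.223 FPKM in THP-1. THP-1 control library 1 was above the other two by more than 2 times, yet it stayed far below MOLM-13, and the log2 fold change was -2.91 (SE 0.27, limma adjusted p = 2.72e-05). HOXA5, a regulator of myeloid differentiation, had 6.12, 6.48 and 6.17 FPKM in MOLM-13 and 0.666, 0.896 and 1.05 FPKM in THP-1. Every THP-1 library was low, with a mean 7.19-fold higher in MOLM-13 and a log2 fold change of -2.73 (SE 0.15, limma adjusted p = 1.19e-06).

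HOXA4 had the smallest called difference, with 1.20, 1.58 and 1.43 FPKM in MOLM-13 and 0.534, 0.646 and 0.483 FPKM in THP-1. The groups did not overlap, and the log2 fold change was -1.20 (SE 0.15, limma adjusted p = 0.000164). HOXA3, which acts in the pharyngeal arches and thymus of the embryo, had 1.67, 1.99 and 1.34 FPKM in MOLM-13, while THP-1 libraries had 0.0639, 0.0868 and 0.0612 FPKM. Its plain ratio of means was 23.5, the widest gap among the 10 genes. The log2 fold change of -3.36 (SE 0.18, limma adjusted p = 9.50e-07) depends on the constant added before the log, and it was -1.31 with 1 and -4.37 with 0.01.

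MEIS1, the cofactor that speeds leukemia together with HOXA9 in experimental models, had 10.7, 11.2 and 9.65 FPKM in MOLM-13 control libraries and 2.63, 2.96 and 2.77 FPKM in THP-1 control libraries. The groups were tight and far apart. MOLM-13 was 3.77-fold higher in the mean, and the log2 fold change was -1.88 (SE 0.09, limma adjusted p = 5.04e-07). PBX3, a partner of HOXA9 and MEIS1 on DNA, had 23.7, 26.6 and 26.6 FPKM in MOLM-13 and 28.5, 26.0 and 24.9 FPKM in THP-1. Here the groups overlapped, with a log2 fold change of 0.04, an interval from -0.13 to 0.22 and a limma adjusted p of 0.608.

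**Figure D2:**
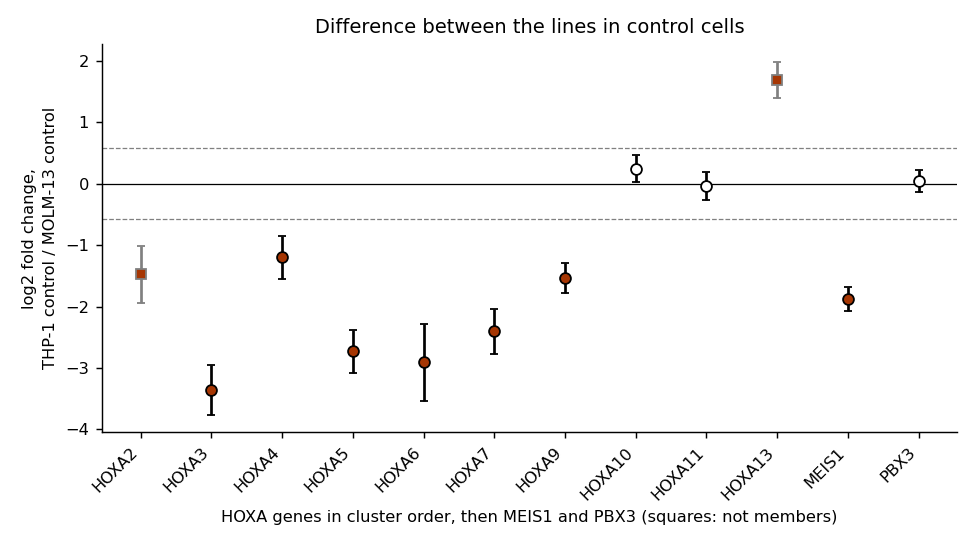
Log2 fold change of THP-1 over MOLM-13 control cells on the log2(FPKM + 0.1) scale with its 95% interval, for the HOXA genes in cluster order and for MEIS1 and PBX3, with squares for HOXA2 and HOXA13, which are outside the 10. Filled symbols were called, and dashed lines mark a log2 fold change of 0.58 in size. HOXA3 to HOXA9 and MEIS1 lie below the lower line, HOXA10, HOXA11 and PBX3 lie between the lines, and HOXA13 lies above.

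The sum over the 8 HOXA genes was 102.6 ± 8.81 FPKM in MOLM-13 and 55.7 ± 4.81 FPKM in THP-1 control cells (mean ± SD, n = 3). HOXA3 to HOXA7 made up 20.0% ± 0.622 of that sum in MOLM-13 and 5.97% ± 0.917 in THP-1. HOXA9 made up 49.7% ± 2.19 and 31.5% ± 1.26, and HOXA10 with HOXA11 made up 30.3% ± 1.57 and 62.5% ± 1.27. HOXA9 thus had the largest share of these 8 genes in MOLM-13, and HOXA10 with HOXA11 had most of it in THP-1. HOXA13 is not in the sum. The ratio of HOXA9 to HOXA10 was 2.19 to 2.50 over the MOLM-13 control libraries and 0.663 to 0.728 over the THP-1 control libraries. PBX3 exceeded MEIS1 by 2.45 ± 0.284 times in MOLM-13 and by 9.54 ± 1.12 times in THP-1. Neither ratio overlapped between the lines, and both gave p = 0.1 in a two-sided exact permutation test, the smallest value that groups of 3 allow.

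HOXA9 was highest in MOLM-13 control cells, followed by PBX3, HOXA10, MEIS1, HOXA11, HOXA7, HOXA5, HOXA6, HOXA3 and HOXA4. Values overlapped between the neighbours MEIS1 and HOXA11, HOXA11 and HOXA7, and HOXA3 and HOXA4. The order in THP-1 control cells was PBX3, HOXA10, HOXA9, HOXA11, MEIS1, HOXA7, HOXA5, HOXA4, HOXA6 and HOXA3, with overlap between PBX3 and HOXA10 and between HOXA4 and HOXA6. With JOA the order of the means in each line was the same as in its control cells.

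The annotation limits some of these levels. In GENCODE 29, antisense HOXA-AS3 covers 1507 of the 2411 exon bases of HOXA7 and 505 of the 1285 of HOXA6, and HOXA11-AS covers 717 of the 2307 of HOXA11. Antisense HOXA10-AS covers 422 exon bases of HOXA9 and 608 of HOXA10, and antisense HOXA-AS2 covers 374 of HOXA3 and 254 of HOXA4. HOXA9 and HOXA10 share 397 and 368 exon bases with a readthrough gene of the same strand, AC004080.3. HOXA4 shares 541 of 1747 with AC004080.6, also of the same strand. The libraries were made with a stranded kit, but the strand setting of the counting is not given in the sources used here, so antisense reads could have entered these values and how reads of the shared exons were assigned is unknown. The 6 noncoding RNAs listed for the cluster had no row in the FPKM table used here, so their own levels could not be looked up.

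JOA was then compared with control within each line, which bears on how the treatment acts on genes of MLL-rearranged cells. None of the 10 genes was called in MOLM-13 cells, and none had an unadjusted p under 0.05. Of 11693 genes tested, limma called 0 (0%), while 481 had an unadjusted p under 0.05. The mean was lower with JOA for 8 of the 10 genes, against 47.6% of all genes tested. Their median log2 fold change was -0.06, beside 0.01 over all genes, and none of the 10 had groups that did not overlap, against 9.65% of all genes. The 95% intervals of the 10 genes lay between -0.58 and 0.48.

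In MOLM-13 cells HOXA9 had 52.7, 57.7 and 48.6 FPKM in JOA libraries 1 to 3, each slightly above the control library of the same number. Its log2 fold change was 0.06 (95% interval -0.15 to 0.26, limma adjusted p = 0.9997). HOXA10 had 20.2, 19.3 and 19.1 FPKM, each below its control library, with a log2 fold change of -0.13 (-0.31 to 0.05). JOA libraries of HOXA4 had 1.18, 1.24 and 1.01 FPKM, again each below its control library, and the log2 fold change was -0.27 (-0.58 to 0.04). These JOA ranges overlapped with those of the control libraries.

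MEIS1 had 10.8, 10.2 and 9.09 FPKM with JOA in MOLM-13, within and just below the control range, and its log2 fold change was -0.07 (-0.27 to 0.13). PBX3 had 24.3, 23.7 and 26.1 FPKM, all inside the control range, with a change of -0.05 (-0.22 to 0.11). HOXA11 had 9.16, 9.38 and 8.74 FPKM, also inside its control range, and changed by -0.06 (-0.28 to 0.16). The remaining genes were spread around their control values. JOA libraries 1 to 3 had 1.70, 1.40 and 1.36 FPKM of HOXA3 and 6.85, 6.43 and 5.09 FPKM of HOXA5. HOXA6 had 2.72, 3.83 and 3.69 FPKM and HOXA7 had 8.11, 7.05 and 7.76 FPKM. The log2 fold changes of these 4 genes ran from -0.14 for HOXA3 to 0.11 for HOXA6, and each group overlapped with its control.

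HOXA3 was under the filter in the THP-1 line, and none of the other 9 genes was called, against 17 of 12712 genes tested (0.134%). HOXA11 had an unadjusted p under 0.05 by limma, 1 of the 9, against 16.9% of all genes tested. The mean was lower with JOA for 7 of the 9, against 43.3% of all genes tested. Their median log2 fold change was -0.08, beside 0.02 over all genes. Control and JOA libraries with the same number deviated together. When limma took the replicate number as a block, it called 161 genes (1.27%) in THP-1 and 0 (0%) in MOLM-13. None of the 10 was among them. In THP-1 the block gave HOXA10 and HOXA11 an unadjusted p under 0.05 by limma, 2 of the 9, against 26.0% of all genes tested. Adjusted p-values with the block were 0.0569 to 0.782 in THP-1 and 0.454 to 0.897 in MOLM-13, with HOXA3 left out in THP-1.

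HOXA11 was the 1 gene of the 10 whose groups did not overlap in THP-1, where 23.4% of all genes did not. It had 8.31, 8.59 and 6.86 FPKM with JOA, all below the lowest control library at 8.70 FPKM. The log2 fold change was -0.23 (95% interval -0.45 to -0.01), with a limma adjusted p of 0.270, and of 0.0569 with the block. HOXA10 had 20.3, 23.4 and 23.0 FPKM with JOA, overlapping the lowest control library, and a change of -0.19 (-0.39 to 0.004, limma adjusted p = 0.306). HOXA13, the next gene of the cluster beyond HOXA11 and no member of the 10, was also separate, with 8.86, 9.81 and 8.57 FPKM with JOA against 10.6, 9.86 and 11.2 FPKM in control cells. Its log2 fold change was -0.22 (limma adjusted p = 0.205), and it too was not called.

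HOXA9 had 16.3, 17.8 and 17.1 FPKM with JOA in THP-1, inside the control range, with a log2 fold change of -0.04 (95% interval -0.24 to 0.17, limma adjusted p = 0.877). MEIS1 had 2.80, 2.27 and 2.37 FPKM, of which libraries 2 and 3 were below all controls, and its change was -0.17 (-0.41 to 0.07, limma adjusted p = 0.462). PBX3 had 26.8, 25.3 and 24.7 FPKM, each a little below its control library, and changed by -0.05 (-0.19 to 0.10). Neither cofactor gene nor HOXA9 had groups that lay apart. HOXA7 had 1.74, 1.64 and 1.47 FPKM and HOXA4 had 0.737, 0.546 and 0.568 FPKM with JOA, with changes of 0.17 (-0.19 to 0.52) and 0.13 (-0.25 to 0.51). HOXA5 had 0.826, 0.830 and 0.754 FPKM and changed by -0.08 (-0.47 to 0.30). All 3 overlapped with control. For the lowest genes little could be resolved. HOXA6 had 0.150, 0.376 and 0.196 FPKM and a change of -0.39 with an interval from -1.19 to 0.41. HOXA3 had 0.0433, 0.0560 and 0.0864 FPKM, under the filter, and a change of -0.08 (-0.39 to 0.22, limma adjusted p = 0.809) when all genes above 0 were fitted.

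**Figure D3:**
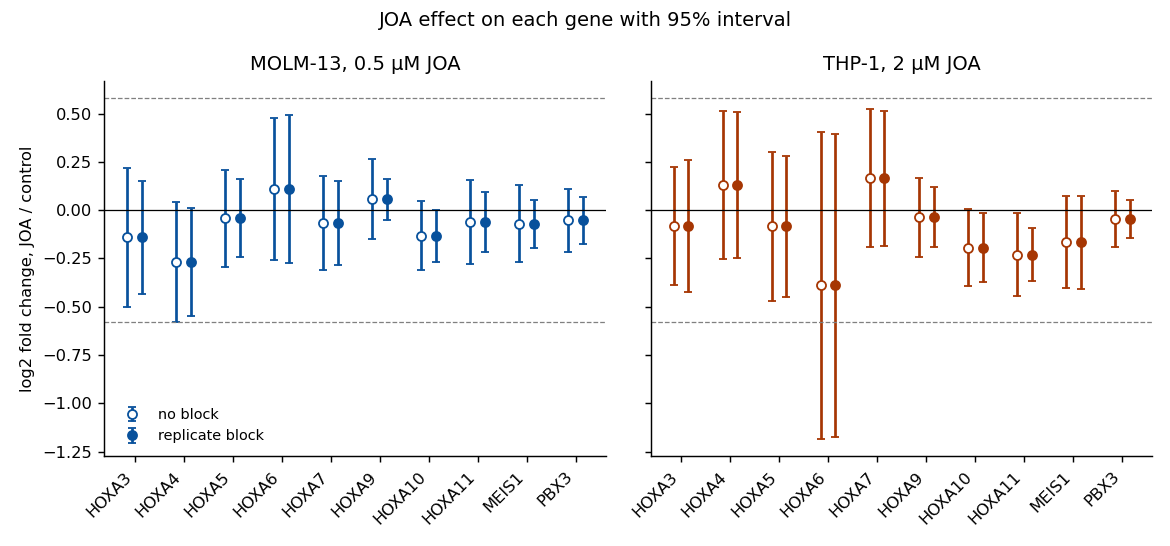
Log2 fold change of JOA over control with its 95% interval on the log2(FPKM + 0.1) scale for each gene in MOLM-13 cells (left, 0.5 μM) and THP-1 cells (right, 2 μM), without (open) and with (filled) the replicate number as a block. HOXA3 in THP-1 comes from the fit of all genes above 0. No point reaches the dashed lines at 0.58 in size, and the interval of HOXA6 in THP-1 is the widest.

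Within pairs of the same replicate number, HOXA4 and HOXA10 were lower with JOA in 3 of 3 pairs in MOLM-13, and HOXA9 was higher in 3 of 3. In THP-1, HOXA11 and PBX3 were lower in 3 of 3 pairs. The share of all genes with such agreement was not computed, so it is not read as a result about these genes. The other genes moved in both directions, as HOXA7 did in THP-1, where its changes ran from -0.17 to 0.59 on the log2 scale. The ratio of HOXA9 to HOXA10 was higher with JOA in 3 of 3 pairs in each line. It was 2.55 to 2.98 over the MOLM-13 JOA libraries and 0.745 to 0.800 over the THP-1 JOA libraries, and neither range overlapped with its control range above. The mean ratio was 1.14 times that of control cells in MOLM-13 and 1.12 times in THP-1. The exact two-sided permutation test gave p = 0.1 in each line, the smallest it can give, and 0.2 after Benjamini-Hochberg adjustment over the 12 comparisons of 4 ratios. This ratio was singled out after its values were seen.

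**Figure D4:**
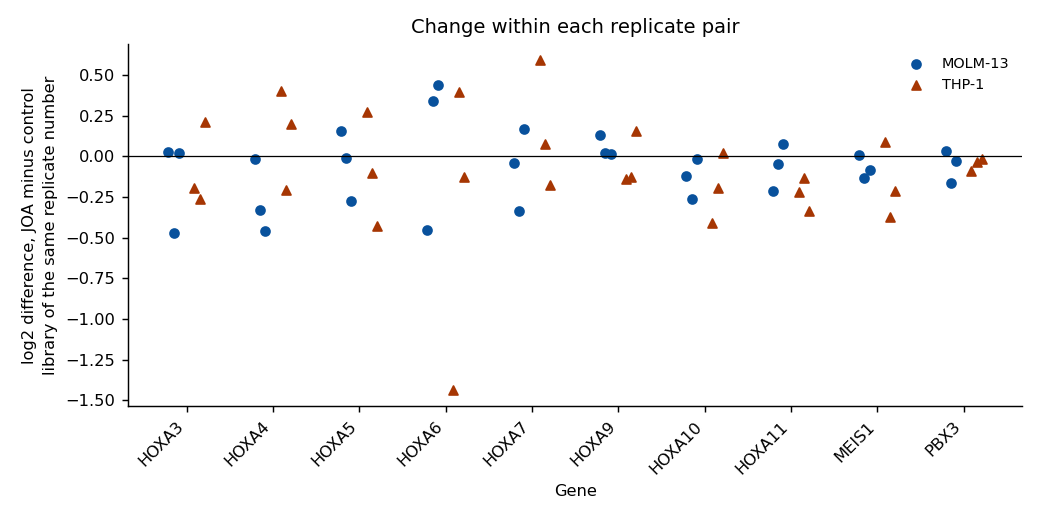
Log2 difference between each JOA library and the control library of the same replicate number on the log2(FPKM + 0.1) scale, with 3 points per gene and line. HOXA11 and PBX3 in THP-1 (triangles) have all points below 0, HOXA9 in MOLM-13 (circles) has all points above 0, and HOXA6 in THP-1 reaches -1.44.

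The JOA effects of the lines were compared by the interaction of line and treatment over the 12 libraries. It was called for 0 of the 10 genes, with adjusted p-values of 0.738 to 0.992 by limma and 0 unadjusted p under 0.05. In the whole table it was called for 0% of 12626 genes without the block and for 0.0475% with it. An unadjusted p under 0.05 was found for 914 genes. The interval of the difference between lines ran from -0.39 to 0.20 for HOXA9, from -0.39 to 0.20 for MEIS1 and from -0.48 to 0.14 for HOXA11. The widest differences were those of HOXA6, at -0.50 (-1.39 to 0.39), and HOXA4, at 0.40 (-0.06 to 0.85), whose limma adjusted p was 0.738. In JOA cells the line comparison had the same outcome as in control cells, with the same 7 of 10 called. Over the whole table it called 5674 of 12606 genes in JOA cells, 2382 lower and 3292 higher in THP-1. There HOXA9 was at -1.63, MEIS1 at -1.97 and HOXA10 at 0.18 on the log2 scale.

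HOXA2 and HOXA13 lie at either side of the 8 HOXA genes. HOXA13 was higher in THP-1, at 10.6 ± 0.660 FPKM against 3.21 ± 0.571 in MOLM-13, with a log2 fold change of 1.70 (limma adjusted p = 7.33e-06). HOXA2 was called lower. It had 0.225, 0.219 and 0.154 FPKM in MOLM-13 and was listed at 0 in THP-1 control libraries 1 and 3 and at 0.0221 FPKM in library 2, so it passed the filter through MOLM-13 alone and could only be lower in THP-1. EVX1, the homeobox gene beyond HOXA13, was listed at 0 in all 12 libraries.

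Of the 28 genes listed for the HOXB, HOXC and HOXD clusters, 8 passed the filter on low values and all 8 were called higher in THP-1, where 25% of all genes were. They passed through their THP-1 level, so they had to differ. HOXB4 had 1.98 ± 0.148 FPKM in THP-1 and at most 0.0406 in any MOLM-13 control library, and HOXB7 had 1.82 ± 0.458 FPKM against at most 0.0304. HOXC6 stood at 1.15 ± 0.329 FPKM and HOXC10 at 0.820 ± 0.167 FPKM in THP-1, and both were below 0.1 FPKM in each MOLM-13 control library. All 4 were thus well below HOXA9, HOXA10 and HOXA11 in THP-1, and close to HOXA7 and HOXA5.

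Other TALE homeobox genes were called higher in THP-1 in 5 of the 7 tested, and none lower, against 25% and 19% of all genes. PBX2, the highest of them, had 39.3 ± 1.66 FPKM in THP-1 and 21.7 ± 0.0727 FPKM in MOLM-13 (log2 fold change 0.85, limma adjusted p = 3.28e-06), so that it exceeded PBX3 in THP-1 and not in MOLM-13. MEIS2 had 1.99 ± 0.0833 against 0.909 ± 0.111 FPKM, and thus was below MEIS1 in both lines. MEIS3 (0.0335 ± 0.0292 FPKM in MOLM-13 and 0.278 ± 0.0734 in THP-1) and PBX4 (0.0876 ± 0.0577 and 0.310 ± 0.131 FPKM), which are 2 of the 5, had MOLM-13 means under the filter and were tested through their THP-1 level, which fixed their direction.

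Genes bound by MLL fusions outside HOX were called lower in THP-1 in 6 of 13 tested, and none was called higher, against 19% and 25% of all genes. RUNX2, a myeloid and bone regulator, had 17.0 ± 0.705 FPKM in MOLM-13 and 0.988 ± 0.190 in THP-1 (log2 fold change -3.99). FLT3, the receptor that carries the duplication in MOLM-13, had 88.2 ± 10.7 and 15.7 ± 2.31 FPKM (-2.49), and SENP6, a SUMO protease, had 34.7 ± 0.875 and 5.71 ± 0.712 FPKM (-2.59). MEF2C, a transcription factor gene, had 33.4 ± 3.98 and 9.93 ± 0.708 FPKM (-1.73). MYB, the highest of the list, had 103.9 ± 2.51 and 99.2 ± 4.36 FPKM and was not called.

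Genes known as targets of HOXA9 and MEIS1, a list that shares FLT3, MYB, BCL2, LMO2 and CDK6 with the previous one, were called lower in 3 of 10 tested and higher in 3, against 19% and 25% of all genes. PIM1, a kinase gene, had 57.7 ± 19.2 FPKM in MOLM-13 and 2.83 ± 0.209 in THP-1 (-4.24). IGF1R, a growth factor receptor gene, was higher in THP-1, with 0.672 ± 0.0819 and 2.48 ± 0.0247 FPKM (1.74), and TRIB2 was called higher at 0.360 ± 0.118 FPKM against 0.0212 ± 0.0205 in MOLM-13. TRIB2 passed the filter through THP-1 alone, so its direction was fixed. The median of the list was -0.25, beside 0.06 over all genes and -1.53 and -1.88 for HOXA9 and MEIS1 themselves.

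Of 16 regulators of chromatin at MLL and HOXA targets, 4 were called higher in THP-1 and 1 lower, against 25% and 19% of all genes. With so few genes, no difference from the 44% called in the whole table is read from these counts. SUZ12, a subunit of the repressive PRC2 complex, had 45.7 ± 2.00 FPKM in THP-1 and 28.2 ± 0.650 in MOLM-13 (0.70). PSIP1, which tethers MLL and menin to chromatin, had 19.3 ± 1.01 and 8.54 ± 0.843 FPKM (1.17). The elongation factor genes ELL2 and AFF4 were higher by 2.08 and 0.70, and CDK9, the elongation kinase, was lower at -0.60. All limma adjusted p-values of these 5 genes were under 0.05.

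**Figure D5:**
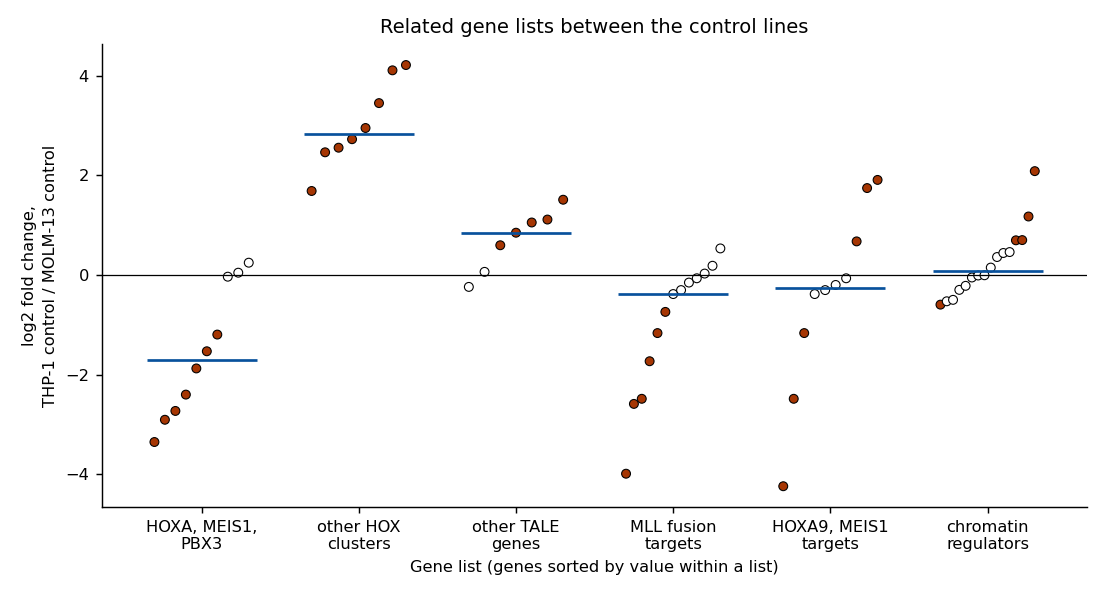
Log2 fold change of THP-1 over MOLM-13 control cells on the log2(FPKM + 0.1) scale for the tested genes of 6 lists, with filled points for called genes and a bar for the list's median. The 10 genes have a median of -1.71, all 8 tested genes of the other HOX clusters lie above 0, and the target lists spread to both sides.

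No gene of these lists was called with JOA in either line without the block. With the block, 2 of the 8 markers were called in THP-1, against 1.27% of all genes. They were ITGAM, an integrin of maturing myeloid cells (0.71, limma adjusted p = 0.0348), and MPO, the myeloperoxidase of early granulocytic and monocytic cells (-0.64, limma adjusted p = 0.00659). Of the 8 markers, 5 had a higher mean with JOA in THP-1 and 3 a lower one, with LYZ (-0.18) and CSF1R (-0.08) among the lower. In MOLM-13, 7 of the 8 had a higher mean with JOA and 1 a lower one, MPO (-0.14), and none was called. ITGAM changed by 0.39 and CD68 by 0.38 there. When the block was fitted over all genes above 0, limma called 0 of 16046 genes in THP-1. The smallest limma adjusted p of that fit was 0.0667, so the genes named next were under 0.05 only with the filter. The share of all genes under 0.05 with the block at any fold was not computed. FLT3 had 11.6 ± 1.24 FPKM with JOA in THP-1 and 15.7 ± 2.31 in control cells. Its change of -0.43 (limma adjusted p = 0.136, and 0.00857 with the block) was under the fold needed for a call. The same held with the block for SOX4 (-0.37, limma adjusted p = 0.0108), SATB1 (-0.36, 0.00975), JMJD1C (-0.29, 0.0306) and CDK6 (-0.26, 0.0362). Among the markers it held for CD68 (0.36, 0.0254) and CD33 (0.29, 0.0342). In THP-1, 11 of the 13 tested genes bound by MLL fusions had a lower mean with JOA, against 43.3% of all genes, and their median was -0.22. In MOLM-13 it was 10 of 13, against 47.6%, with a median of -0.08. The list of HOXA9 and MEIS1 targets had medians of -0.003 in MOLM-13 and -0.02 in THP-1.

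Across the 12 libraries, after subtraction of each line's mean, the 45 pairs of the 10 genes had a median Pearson correlation of 0.22, and 32 pairs were above 0. The highest was 0.73 between HOXA3 and HOXA10 and the lowest was -0.60 between HOXA6 and HOXA7. Among 9234 genes with at least 1 FPKM in the mean of both lines, the genes most like HOXA9 by this measure were GTF3C1 (r = 0.90), INPP5D (0.88) and DGKA (0.86). For MEIS1 they were IFITM2 (0.88), ATG9A (0.83) and MFNG (0.83). These correlations describe 12 libraries that share treatment, depth and replicate number. They carry no test.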

How the data were processed

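mRNA-seq was performed by the authors on 12 libraries, 3 control and 3 JOA libraries for each of MOLM-13 and THP-1. The deposited values are FPKM per gene and library, which the authors estimated from paired-end sequencing of libraries made with a stranded kit and scaled to gene length and mapped fragments. The submitters' processing notes name Trimmomatic, HISAT2, Cufflinks, HTSeq and build hg38, without versions. The annotation and the strand setting are not given in the sources used here. Read counts were not used here, so precision comes from the replicates alone, and no counting interval is given.

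Genes averaging under 0.1 FPKM over the libraries of a fit were left out, log2(FPKM + 0.1) was taken and limma 3.58.1 in R 4.3.3 (lmFit, eBayes with a trend) was fitted over all genes. A call required an adjusted p (Benjamini-Hochberg) below 0.05 and a log2 fold change of at least 0.58 in size, and the interaction needed the adjusted p alone. The authors used DESeq, which needs counts and was not run. HOXA3, under the filter in THP-1, was tested over all genes above 0, a choice made after seeing the data. The fits were tested on simulated data with independent noise and only genes averaging at least 1 FPKM. That test does not cover genes below this level or libraries of the same number that deviate together. Ratios between genes were compared by exact permutation tests in Python 3.11.15.

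Groups and replicate numbers come from the sample labels. Nothing there says that replicates were separate cultures, so p-values measure only the spread between these samples, which may be technical. Deviations from the group means of control and JOA libraries with the same number correlated at 0.360 to 0.529 in MOLM-13 and 0.263 to 0.510 in THP-1, and those with different numbers at -0.364 to 0.058 and -0.419 to -0.051. The number was therefore also fitted as a block. Alternatives covered the pseudocount, the filter, 2 rescalings, eBayes without a trend, the block, 1 fit on all 12 libraries, JOA libraries in place of control, and leaving out each library.

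The 10 genes and the related lists were chosen with earlier results of these data known. A few genes of the related lists are not reported here and do not enter their counts. From each related list, up to 4 called genes with the largest change per comparison and the most highly expressed gene were named. FLT3 and the other uncalled genes named with JOA, CDK9 and EVX1 were added after their values were seen. Promoters came from RefSeq (GRCh38.p14) and gene positions from GENCODE 29.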

Additional observations from a re-analysis of the deposited data

How the results depend on the processing

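The calls of the 10 genes, 0 with JOA in each line, 7 between the lines and 0 for the interaction, held for each gene that an alternative tested. A filter at a mean of 1 FPKM left out HOXA3 and HOXA4 between the lines, so that 5 were called there. Over the whole table that filter called 3866 of 10056 genes between the lines, 1968 of them lower in THP-1. Leaving out 1 library of 3 changed no call either. The counts over the whole table moved more. In MOLM-13 the count was 0 and became 1 with all genes above 0 and 1 in 1 fit on all 12 libraries. In THP-1 it was 17 and became 8 with a pseudocount of 1, 0 with all genes above 0, 1 without a trend, 56 in 1 fit on all 12 libraries and 161 with the replicate block, and it was 0 to 1 when each library was left out in turn. The interaction count of 0 became 1 with a pseudocount of 1, 3 with all genes above 0 and 6 with the replicate block. The cause was not tested.

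Genes near 0 changed sign. HOXA11 between the lines became 0.047 after TPM rescaling, which moved the median over all genes from 0.06 to 0.14, and the interaction became -0.047 for HOXA3 with a pseudocount of 0.01 and -0.017 for PBX3 after median-of-ratios rescaling. With 1 library left out, log2 fold changes with JOA in MOLM-13 ran from -0.13 to 0.083 for HOXA5, -0.17 to 0.011 for HOXA7, -0.0064 to 0.14 for HOXA9 and -0.16 to 0.019 for HOXA11. In THP-1 they ran from -0.25 to 0.048 for HOXA5, -0.13 to 0.042 for HOXA9 and -0.087 to 0.0078 for PBX3. Between the lines the ranges were -0.13 to 0.046 for HOXA11 and -0.011 to 0.086 for PBX3. For the interaction they were -0.070 to 0.20 for HOXA3, -0.20 to 0.090 for HOXA5, -0.14 to 0.015 for HOXA10 and -0.034 to 0.064 for PBX3.

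The replicate block changed no call among the 10 genes. Control libraries of the 2 lines with the same number correlated at 0.066 to 0.187 and those with different numbers at -0.120 to 0.068, so these numbers were not taken as pairs. With the block the line comparison called 5593 genes (44.3%) in place of 5559, and 7 of the 10. Of the ratios between genes, which no rescaling changes, 72 values with 1 library left out were computed. All 72 moved by less than the spread between libraries. A group mean cannot move by more than that spread when 1 library is left out, so this outcome was fixed. It therefore says nothing about how stable the ratios are. Total depth is unknown, so the precision of HOXA3 and HOXA6 in THP-1 rests on their replicates.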
